A study of Rattus norvegicus with 8 samples.

Results

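The nuclei described here are a set of nuclei from rat nodose ganglia, chosen by their own transcript counts for the pattern Col27a1, Kirrel3 and Fhip1a. A nucleus was selected on having at least 2 transcripts (unique molecular identifiers, UMIs) of Kirrel3, at least 1 of Col27a1, at least 1 of Fhip1a and St18 together, and 0 of Lpar3. The rule held in 1849 of the 36741 nuclei, from 63 nuclei in pool 2ML to 283 in pool 6FR. The working name of the set was Col27a1 Kirrel3 Fhip1a vagal neurons. The data bore this out in part: 1430 of the 1849 nuclei (77.3%) lay in neuron-like clusters and 1046 (56.6%) in a single neuron-like cluster led by those genes, while 260 lay in non-neuronal clusters. The whole set is therefore called rule nuclei, and the cluster led by Fhip1a, Kirrel3, St18 and Col27a1 is called cluster 1.

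The nodose ganglion holds the cell bodies of vagal sensory neurons, which carry signals from the gut, heart, lungs and larynx to the brainstem. These neurons fall into many transcript-defined types that differ in ion channels, receptors for gut hormones and amines, and adhesion molecules. Kirrel3 is an immunoglobulin-domain adhesion protein of synapses, Col27a1 a fibrillar collagen chain, Fhip1a a member of the FHIP family that works with Hook adaptors and dynein in vesicle transport, and St18 a zinc finger transcription factor of the MYT1 family. Lpar3 is a receptor for lysophosphatidic acid and the rule demanded that none of its transcripts be counted in a nucleus. It was among the leading genes of cluster 5 (51.2 CPM, a UMI in 15.6% of its nuclei) and was at a like level in cluster 10 (55.0 CPM, 13.6% of nuclei), CPM being a gene's UMIs per 1000000 UMIs of the same nuclei.

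The ganglia came from 8-week-old Long Evans rats that had undergone no experiment, 18 labelled male and 18 female. Each of the 12 pools combined the ganglia of 1 side from 6 rats, with 3 pools for each combination of labelled sex and side. The deposited names of the pools give a number, M or F, and L or R. Left and right ganglia would come from the same animals, which the labels do not pair. Nuclear RNA was counted, so the values describe nuclei and not whole cells. Pools held 1738 to 4849 nuclei. Transcripts of the Y-linked genes went against the label of 2 pools: their sum was 2.88 CPM in 1ML and 88.6 CPM in 4FL. The other 5 male-labelled pools had 84.4 CPM or more and the other 5 female-labelled pools 3.95 CPM or less, so main results by labelled sex, and the interaction of side and labelled sex, are also given without 1ML and 4FL. Nuclei of all pools shared 8 sublibraries, in which 4.49% to 5.73% of nuclei met the rule. Of 34798 distinct well combinations 1865 occurred in more than 1 sublibrary, and 7 of these carried rule nuclei in more than 1 sublibrary.

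The RefSeq promoter table held windows for Col27a1 and Fhip1a, 2 of the genes that chose the nuclei. They are shown because transcripts of these genes are what the rule counts. Both are from build GRCr8, run 5′ to 3′ on the gene's strand and span 250 bases before to 50 after the annotated start. The Col27a1 window is chr5:81662658-81662957 on the plus strand, and the Fhip1a window is chr2:173389439-173389738 on the minus strand.
Col27a1: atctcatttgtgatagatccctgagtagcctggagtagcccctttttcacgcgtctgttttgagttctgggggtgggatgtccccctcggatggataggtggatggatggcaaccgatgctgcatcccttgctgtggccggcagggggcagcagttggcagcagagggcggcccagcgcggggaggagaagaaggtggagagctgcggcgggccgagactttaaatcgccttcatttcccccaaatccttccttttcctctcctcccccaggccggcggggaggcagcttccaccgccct
Fhip1a: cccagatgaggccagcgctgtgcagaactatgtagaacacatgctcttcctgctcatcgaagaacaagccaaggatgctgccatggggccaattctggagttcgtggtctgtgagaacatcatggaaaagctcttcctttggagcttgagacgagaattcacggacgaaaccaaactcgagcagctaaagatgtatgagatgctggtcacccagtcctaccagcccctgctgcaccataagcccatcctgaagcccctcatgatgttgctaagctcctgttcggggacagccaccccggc
The Col27a1 window held 15 CpG dinucleotides and 61% G and C, and the Fhip1a window 9 CpG and 53.7%. Over all 33469 windows of this length the medians were 7 CpG and 51.7%. The letters AAAGTTT, a motif of MYT1 family factors such as St18, were in neither window on either strand, so nothing is in capitals. They were in 4.76% of all windows. Read in codons from base 2, the Fhip1a window has no stop codon up to its end. It may therefore be coding sequence at a start annotated inside the gene, and its contents are not taken as those of the Fhip1a promoter.

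Rule nuclei were most frequent in cluster 1 and occurred in 27 of the 29 clusters. In cluster 1, 1046 of 3822 nuclei met the rule (27.4%, exact Clopper-Pearson 95% interval 25.96% to 28.8%). The next shares were 14.3% (10.8% to 18.4%) in cluster 23, an unnamed cluster of mixed markers, and 7.75% (6.38% to 9.31%) in cluster 9, a neuron-like cluster. Satellite glia, which wrap neuron cell bodies, reached 4.51% (3.88% to 5.20%), and myelinating Schwann cells 1.11% (0.737% to 1.60%). Over all non-neuronal nuclei the share was 3.18% and over neuron-like nuclei 5.49%. Clusters 19 and 28 held 0 of 624 and 0 of 194 nuclei, which allows shares of up to 0.589% and 1.88% (upper ends of the exact 95% intervals). Intervals and limits of this kind cover counting error only.

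**Figure D1:**
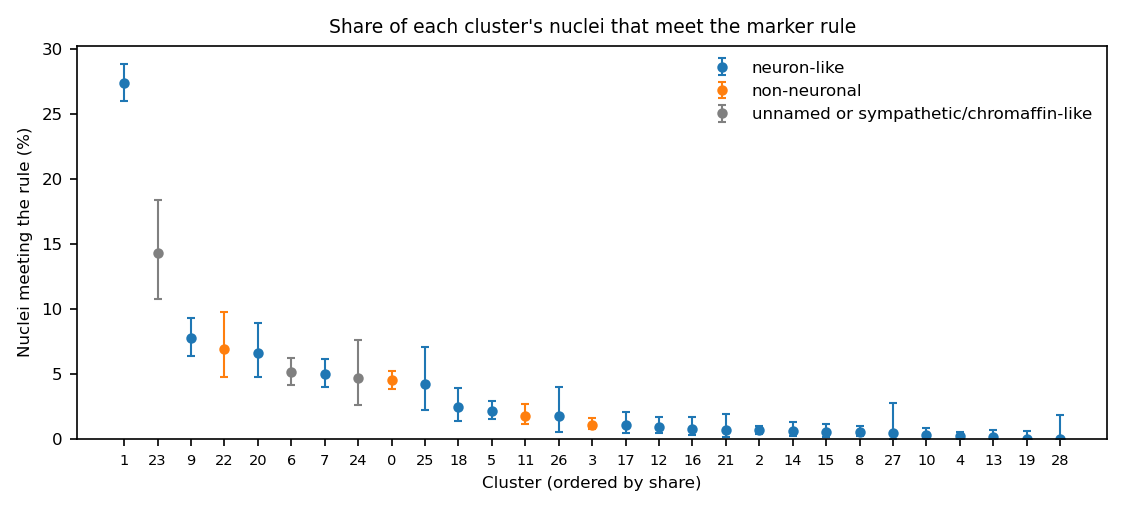
Percent of nuclei meeting the marker rule (y axis) in each of the 29 clusters (x axis, ordered by share), with exact 95% intervals as bars and colours for neuron-like, non-neuronal and other clusters. Cluster 1 stands at 27.4%, and the satellite glia of cluster 0 at 4.51% lie above most neuron-like clusters.

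Depth differed between the rule nuclei of cluster 1 and the others. Rule nuclei of cluster 1 had a median of 3008 UMIs, rule nuclei elsewhere 6317 and the remaining neuron-like nuclei 2953. Among rule nuclei elsewhere 15.6% were among the 5% of all nuclei with the highest doublet scores, compared with 0.478% of those in cluster 1. When nuclei were thinned to 1500 UMIs each and shallower ones left out (8391 nuclei), 587 nuclei met the rule, of which 461 (78.5%) lay in cluster 1. The share in cluster 1 was then 15.7%, compared with 3.27% in cluster 9, 0.544% in satellite glia and 0.301% in myelinating Schwann cells. Without thinning, 21.9% of satellite glia had a UMI of Col27a1 and 60.3% of Kirrel3 (median depth 2656 UMIs), against 36.0% and 98.7% in cluster 1 (median depth 2284 UMIs). Fhip1a and St18 separated these clusters more: they were detected in 46.4% and 52.0% of cluster 1 nuclei and in 7.99% and 11.3% of satellite glia. The part of free RNA and of doublets in the shares outside cluster 1 was not tested.

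The rule genes themselves chose the nuclei, and their levels are given as a description. Kirrel3 in rule nuclei of cluster 1 was lowest at 5840, median 6935 and highest at 8108 CPM over the 12 pools. Rule nuclei of other clusters had 1504 to 2392 CPM (median 1908), and neurons outside cluster 1 that did not meet the rule 764 to 1003 CPM (median 857). Every pool of the first set lay above every pool of the others. The other neurons include small neuron-like clusters with high Kirrel3. Over all their nuclei it was at 5778 CPM in cluster 28, 5444 CPM in cluster 27 and 3668.5 CPM in cluster 26, against 6380 CPM in cluster 1. High Kirrel3 was therefore not particular to cluster 1. Col27a1 in the rule nuclei of cluster 1 was at 377 to 574 CPM (median 465). It was at 127 to 222 CPM (median 160) in the rule nuclei elsewhere, 12.8 to 21.5 CPM (median 17.6) in other neurons and 52.7 to 97.4 CPM (median 76.7) in non-neuronal nuclei. Non-neuronal nuclei thus had more Col27a1 than neurons outside cluster 1 in each pool. Fhip1a was at 312 to 430 CPM (median 358) in the rule nuclei of cluster 1 and at 23.6 to 32.4 CPM (median 29.2) in other neurons. St18 was at 334 to 556 CPM (median 429) and 27.1 to 74.4 CPM (median 50.7) in the same sets. The other neurons include cluster 7, a neuron-like cluster led by Xylt1, Sctr, Cckar, Chrna3 and St18. Over all its nuclei St18 was at 472 CPM (68.8% of nuclei had a UMI), above the 355 CPM (52.0%) of all cluster 1 nuclei. Cluster 7 had Kirrel3 at 569 CPM and Fhip1a at 36.0 CPM, and 5.02% of its nuclei met the rule.

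**Figure D2:**
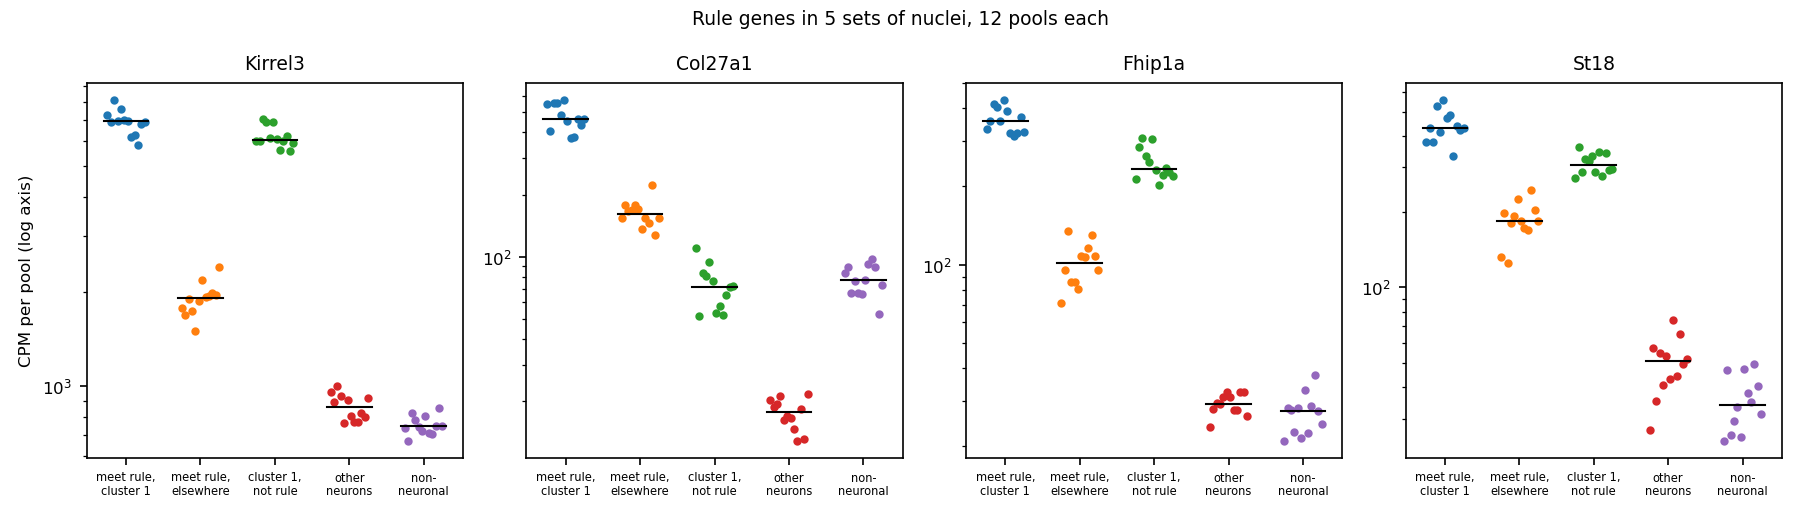
Level of each of the 4 rule genes in CPM (y axis, log scale) in 5 sets of nuclei (x axis), with 1 point per pool and a line at the median of the 12 pools. Kirrel3 in cluster 1 nuclei that fail the rule has a median of 6060 CPM, close to the 6935 CPM of those that meet it, while Col27a1 falls from 465 to 71.5 CPM.

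Cluster 1 also held 2776 nuclei that failed the rule, with a median of 2032 UMIs. They had Kirrel3 at 5589 to 7052 CPM and St18 at 272 to 362 CPM, and Col27a1, which the rule demands, at 51.8 to 110 CPM. Just inside the rule, 79 nuclei had exactly 2 UMIs of Kirrel3, of which 11 lay in cluster 1. Just outside, 99 nuclei had 1 UMI of Kirrel3 and met the other limits, of which 4 lay in cluster 1. The limit on Col27a1 was the one that removed most: 4037 nuclei had 0 UMIs of Col27a1 and met the other limits, of which 1587 lay in cluster 1. Among the rule nuclei 1254 (67.8%) had just 1 UMI of Col27a1. A further 1605 nuclei failed on Fhip1a and St18 alone, and 81 failed on Lpar3 alone, 10 of them in cluster 1. In rule nuclei of cluster 1 both Fhip1a and St18 were detected in 44.1%, Fhip1a without St18 in 24.7% and St18 without Fhip1a in 31.3%.

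Compared with the 24622 other neuron-like nuclei, the rule nuclei as a whole had more transcripts of satellite glia genes and fewer of several genes of other neuron types. The rule nuclei here include the 260 of non-neuronal clusters, 180 of them in the satellite glia cluster, while the other set is neuron-like only. Counts were summed per pool and compared with edgeR's quasi-likelihood test with pool as a block. Called are genes with a Benjamini-Hochberg adjusted p under 0.05 and a change of at least 2-fold. Because the rule was proposed from clusters of the same nuclei, these calls describe the set and support nothing further. Of 11969 genes tested, 480 (4.01%) were higher and 258 (2.16%) lower in rule nuclei, the rule genes included. Of the 15 named genes with the largest rise, all had fold changes above 0 in rule nuclei of other clusters. In rule nuclei of cluster 1, against neurons outside it, 13 of them had log2 fold changes between -1.34 and -0.05. Tyrp1, a melanosomal enzyme gene that led the satellite glia cluster here, was at 111 to 204 CPM (median 138) in rule nuclei and 18.8 to 43.1 CPM (median 25.9) in other neurons. Its log2 fold change was 2.37 ± 0.08 (SE, edgeR) over all rule nuclei, 2.83 in those outside cluster 1 and -1.19 in those of cluster 1. Apoe, the lipid carrier made by glia, had 335 to 570 CPM in rule nuclei, 58.3 to 147 CPM in other neurons and a median of 1472 CPM in satellite glia. Its log2 fold changes were 2.21 over all rule nuclei, 2.65 outside cluster 1 and -1.26 in cluster 1. The potassium channel gene Kcnj10, the receptor gene Notch1, the matrix gene Sparc, Kctd12 and Ttyh1 were likewise higher outside cluster 1 and had log2 fold changes of -1.34 to -0.46 in it, each with an edgeR adjusted p under the threshold. For Erbb3 (-0.42), Efemp1 (-0.47), AABR07028488.1 (-0.29), Tnc (-0.11) and Fbln2 (-0.05) the fold change in cluster 1 did not pass (edgeR adjusted p from 0.0808 to 0.826), and Tnc and Fbln2 were above neurons outside it in 5 of 12 pools each. With rule nuclei of neuron-like clusters alone, added after seeing the data, the log2 fold changes were 0.78 for Tyrp1 and 0.51 for Apoe. Those of Kcnj10 (0.21) and Notch1 (0.31) did not pass (edgeR adjusted p of 0.476 and 0.153), while Gas7 (1.68) and Nnat (1.96) stayed high.

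Gas7 and Nnat were the exceptions, higher in both subsets. Gas7, a gene of neurite outgrowth, was at 332 to 496 CPM in rule nuclei against 60.6 to 113 CPM in other neurons, and its log2 fold change was 2.41 in cluster 1 and 2.38 elsewhere. Satellite glia also had it, at a median of 699 CPM. Nnat, an imprinted gene encoding a small membrane proteolipid, was at 35.8 to 124 CPM in rule nuclei against 8.66 to 27.2 CPM in other neurons, and satellite glia had a median of 29.7 CPM. The 8 satellite glia markers summed to 832 to 1281 CPM (median 963) in rule nuclei outside cluster 1. They summed to 44.7 to 144 CPM (median 81.4) in rule nuclei of cluster 1, 114 to 242 CPM in other neurons and 1869 to 2699 CPM in satellite glia. None of the 8 was at 0 in any of these sets. The 10 neuron markers summed to a median of 6343 CPM in rule nuclei of cluster 1, 7275 CPM in those elsewhere and 5946 CPM even in satellite glia. Other neurons had a median of 8608 CPM, and their range (7855 to 9244 CPM) lay above that of rule nuclei of cluster 1 (5644 to 6950 CPM). Cluster 1 had 3 of the 10 raised over non-neuronal clusters, the minimum for the name neuron-like.

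The 10 genes with the largest fall had lower values still in cluster 1. Grik1, a kainate-type glutamate receptor subunit, was at 93.8 to 270 CPM (median 184) in rule nuclei and 599 to 971 CPM (median 720) in other neurons. Its log2 fold change was -2.06 ± 0.06 (SE, edgeR) over all rule nuclei and -4.12 in those of cluster 1. Tafa4, a secreted peptide of unmyelinated mechanoreceptors, was at 6.70 to 75.3 CPM in rule nuclei against 147 to 277 CPM in other neurons. Alk, a receptor tyrosine kinase, was at 174 to 333 CPM against 722 to 1009 CPM. Opcml, Gna14, Tmem233, Adamts16, Tmem255a, Cpne4 and Cdh12 completed the list, with log2 fold changes from -2.09 to -1.71.

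**Figure D3:**
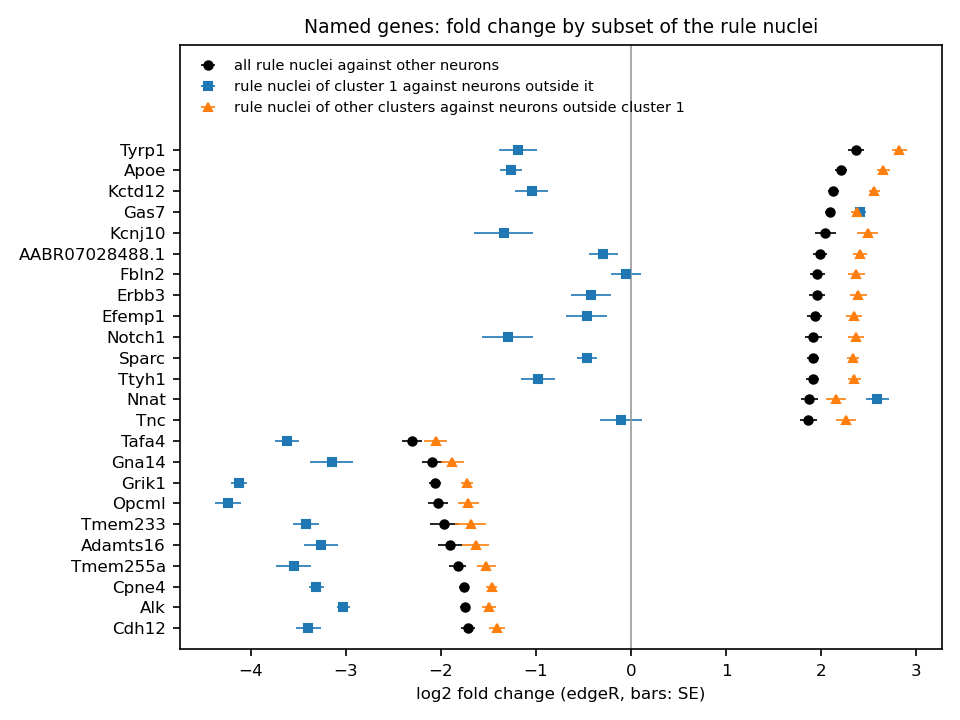
Log2 fold change with its standard error (x axis) of genes named by rule (y axis) for all rule nuclei, rule nuclei of cluster 1 and rule nuclei of other clusters. The subsets lie on opposite sides of 0 for each gene shown in the upper block except Gas7 and Nnat, for example Apoe at 2.65 and -1.26, although Fbln2 (-0.05) and Tnc (-0.11) lie close to 0 in cluster 1, and on the same side for the bottom 10.

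The rule nuclei of cluster 1 are set beside neurons outside cluster 1 below, a comparison added after seeing the data. The edgeR calls serve as a description only, since the cluster was formed from these same counts. By the same criteria 322 of 11279 genes (2.85%) were higher and 747 (6.62%) lower in rule nuclei of cluster 1, whereas rule nuclei elsewhere had 580 of 11601 higher (5%) and 194 lower (1.67%). Beside each list count, the shares of 2.85% and 6.62% and a median log2 fold change of -0.02 over all genes serve as the background. Level ranges are over the 12 pools.

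Besides the rule genes, cluster 1 was led by AABR07068728.1, Ankrd24, Kcnk9, Rab3b, Syt17 and Me3. Kcnk9, a two-pore-domain leak potassium channel (TASK3) sensitive to acid, was at 70.3 to 134 CPM (median 104) in rule nuclei of cluster 1 and 7.36 to 14.6 CPM (median 10.1) in neurons outside it. Ankrd24 was at 460 to 815 CPM against 78.6 to 111 CPM. Rab3b, a small GTPase of vesicle release, was at 74.7 to 161 CPM against 13.2 to 18.8 CPM, and Syt17, a synaptotagmin, at 62.7 to 140 CPM against 9.69 to 15.97 CPM. Me3, the mitochondrial malic enzyme, was at 132 to 294 CPM against 32.6 to 53.6 CPM. All 12 pools were higher in cluster 1 for each of these genes with values given. The genes were chosen for their high level in this cluster, so this follows from the choice and is a description only.

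Of the mechanosensitive and stretch-related channels 14 could be tested, of which 2 were higher and 4 lower (median log2 fold change -0.14). Asic2, an acid-sensing sodium channel subunit found in baroreceptor and other mechanosensory endings, was at 8172 to 10550 CPM (median 8831) in rule nuclei of cluster 1. Neurons outside it had 1539 to 2448 CPM (median 2027), rule nuclei elsewhere a median of 3336 CPM and non-neuronal nuclei 1288 CPM. Tmc3, a member of the transmembrane channel-like family, was at 802 to 1334 CPM (median 1049) against 183 to 306 CPM (median 235). Piezo2, the touch and lung-stretch channel, went the other way, at 12.2 to 76.7 CPM (median 30.9) against 192 to 483 CPM (median 344). Asic1, Piezo1 and Kcnk10 were also lower. Levels of Piezo2 in cluster 1 were below those of non-neuronal nuclei (median 172 CPM) in all 12 pools.

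Among 13 TRP channels none was higher and 7 were lower (median log2 fold change -1.05). Trpa1, the irritant receptor, was at 21.7 to 71.9 CPM (median 52.6) against 340 to 453 CPM (median 400). Trpm3, a heat-activated channel, was at 946 to 1303 CPM against 2542 to 3210 CPM. Trpv1, the capsaicin receptor, was not called, at 52.8 to 152 CPM against 71.0 to 98.6 CPM. Trpm8, Trpc7, Trpc4 and Trpm2 were among the other lower members.

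Voltage-gated channels gave a mixed picture. Of 13 sodium channel genes 2 were lower, Scn4b and Scn1a. Scn10a, the sodium channel of C-fibre neurons, was at 751 to 991 CPM against 1124 to 1403 CPM, a difference under 2-fold. Of 25 potassium and HCN channel genes 2 were higher and 6 lower. The pacemaker channel Hcn4 was at 18.0 to 37.8 CPM against 4.27 to 7.89 CPM. Kcnq3, a subunit of the M-current, was at 2183 to 3754 CPM against 649 to 1158 CPM. Kcnh8 and Kcnc2 were lower, with log2 fold changes of -3.10 and -2.06, as were Kcnh1, Kcna1 and Kcng1. Of 14 calcium channel genes, the R-type channel Cacna1e was higher (543.5 to 751 CPM against 162 to 206 CPM) and Cacnb2 and Cacna1i were lower.

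**Figure D4:**
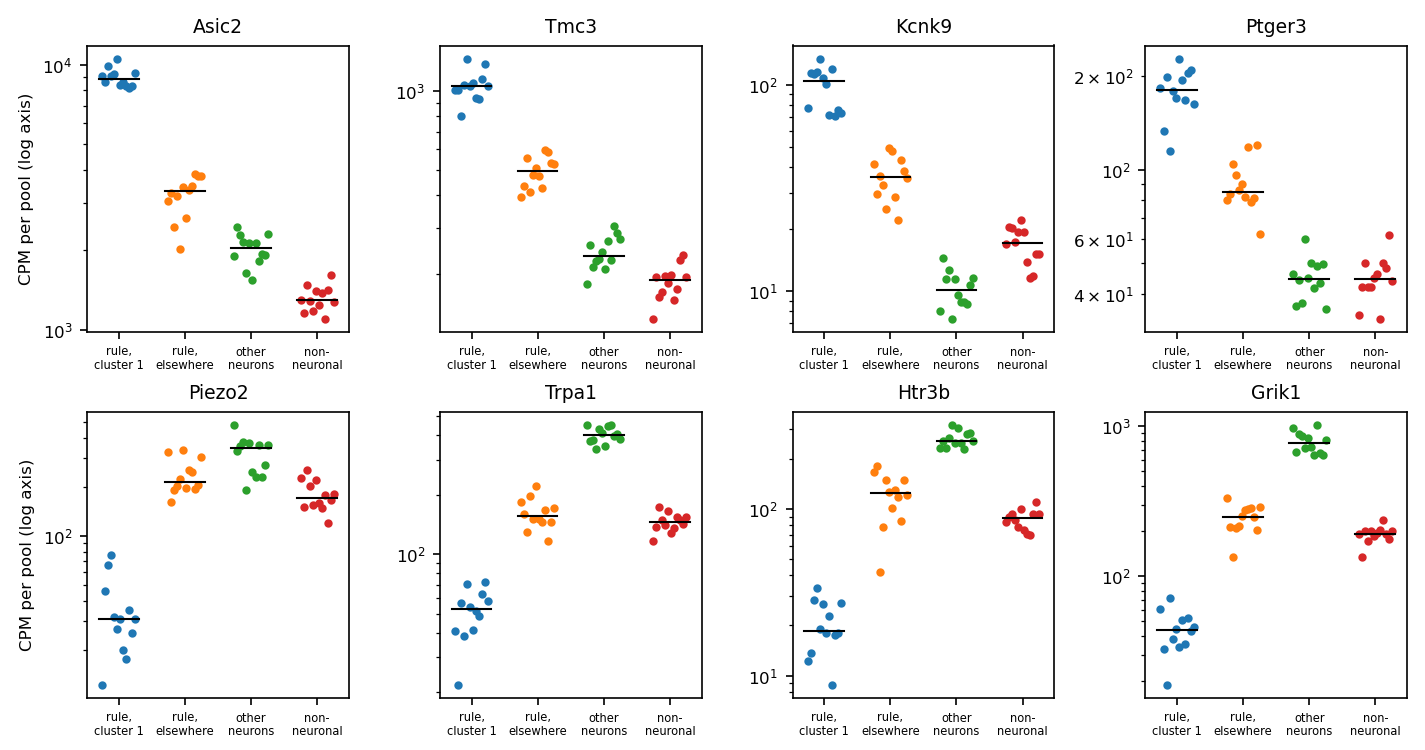
Level in CPM (y axis, log scale) of 8 channel and receptor genes in rule nuclei of cluster 1, rule nuclei elsewhere, other neurons outside cluster 1 and non-neuronal nuclei (x axis), with 1 point per pool and a line at the median. Asic2, Tmc3, Kcnk9 and Ptger3 are highest in rule nuclei of cluster 1 in all 12 pools, and Piezo2, Trpa1, Htr3b and Grik1 are lowest there.

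Receptors for gut hormones differed by member. Of 9 that could be tested 2 were higher and 2 lower. Cckar, the cholecystokinin receptor of vagal satiety signalling, was at 61.5 to 103 CPM (median 67.0) against 11.4 to 35.7 CPM (median 23.9). Glp1r, the receptor of glucagon-like peptide 1, was at 38.4 to 92.9 CPM (median 47.9) against 12.5 to 32.8 CPM (median 24.98), and rule nuclei elsewhere had a median of 62.8 CPM. Sctr, the secretin receptor, and Ntsr1, a neurotensin receptor, were lower. The serotonin-gated channel subunits were lower: Htr3b was at 8.78 to 33.6 CPM (median 18.6) against 228 to 321 CPM (median 255), and Htr3a at 6.38 to 46.8 CPM against 91.3 to 184 CPM. Htr4 was also lower and Htr1b higher among the 5 serotonin receptors tested.

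Of 10 acetylcholine receptor genes 2 were higher and 5 lower. The nicotinic subunits Chrnb4 and Chrna7 were at medians of 61.1 and 105 CPM in rule nuclei of cluster 1 against 30.8 and 49.7 CPM. The muscarinic receptor Chrm2 was at 0 to 19.97 CPM against 72.8 to 111 CPM, and Chrm3, Chrm4, Chrna6 and Chrnb3 were lower too. Of 15 receptors for inflammatory mediators, Ptger3, a prostaglandin E2 receptor, was at 115 to 227 CPM (median 181) against 35.8 to 59.9 CPM (median 44.6). Ptgfr was also higher and 5 members were lower. Ptger3 was also among the leading genes of cluster 6, an unnamed cluster that is not part of the other neurons. Of 8 purinergic receptors none was higher and 3 were lower, P2ry1, Adora2a and P2rx6, with log2 fold changes of -3.24, -1.73 and -1.30 (median of the 8, -0.61). P2rx3 and P2rx2, the ATP-gated channels typical of nodose neurons, were not called, at medians of 289 and 99.3 CPM against 269 and 91.4 CPM.

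Transmitter genes were mostly lower, with 1 of 7 higher and 5 lower. Slc17a6, the vesicular glutamate transporter VGLUT2, was at 198 to 317 CPM against 223 to 303 CPM, which overlap. Of 6 neuropeptide genes tested, Adcyap1, which encodes PACAP, was higher, at 94.4 to 200 CPM (median 154) against 26.1 to 51.7 CPM (median 34.6). Tac1 (substance P), Calca (CGRP), Edn3 and Cartpt were lower, and Tac1 was at 0 to 14.4 CPM against 9.67 to 78.6 CPM. Slc5a7, the choline transporter, was at 128 to 281 CPM against 72.9 to 109 CPM, while Chat, the enzyme that makes acetylcholine, was lower at 0 to 3.597 CPM. Th, of catecholamine synthesis, was called higher in rule nuclei as a whole with a log2 fold change of 1.87, but was at 0 to 7.19 CPM in cluster 1 and a median of 20.8 CPM in rule nuclei elsewhere.

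Of 14 ionotropic glutamate receptor genes, Gria1 was higher (44.8 to 206 CPM against 35.0 to 87.98 CPM, with overlap) and 5 were lower, Grik1 and Gria4 most. Of 12 GABA receptor genes none was higher and 6 were lower. Of 10 neurotrophin and GDNF family receptor genes none was higher and 6 were lower. Ret, the signalling receptor of GDNF ligands, was at 44.7 to 148 CPM against 335 to 486 CPM, and Ngfr at 224 to 523 CPM against 869 to 1434 CPM. Ntrk2, the BDNF receptor, was not called, at 1203 to 1586 CPM against 843 to 1142 CPM. Both lists of axon type gave lower calls only. Of 12 large-calibre and myelinated axon genes none was higher and 2 were lower (median log2 fold change -0.39), Spp1 and Nefh. Nefh, the heavy neurofilament of large fibres, was at 89.3 to 201 CPM against 354 to 541 CPM. Of 8 unmyelinated axon genes none was higher and 2 were lower (median -0.68), Gfra3 and Tmem233.

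Of 25 cadherin and contactin genes 16 were lower and 1, Pcdh17, was higher (369 to 623 CPM against 140 to 194 CPM), with a median log2 fold change of -1.49. Of 32 guidance genes 6 were higher and 9 lower. The repulsive ligands Sema3a and Sema3e were higher, with log2 fold changes of 2.55 and 1.32, as were Sema3d, Plxnb1, Epha5 and Nrp2, while Epha7, Efnb2 and Unc5b were among the lower. Of 24 neuron identity transcription factors Bcl11a was higher and 10 were lower, among them Casz1 at 0 to 19.1 CPM against 108 to 154 CPM and Onecut1 at 0 to 7.53 CPM against 16.6 to 31.3 CPM. Of the 5 jugular neuron markers counted, Prdm12 and Prdm8 had 0 UMIs in rule nuclei of cluster 1, which allows up to 0.876 CPM of each. The 5 together had a median of 81.75 CPM there and 162 CPM in other neurons. The 6 nodose neuron markers had medians of 152.8 and 167.8 CPM, with overlapping ranges (91.1 to 209 and 116 to 222 CPM). The nodose marker Hoxb5 was among the 10 lower transcription factors. Cluster 1 had 0 raised markers of either list, as had neuron-like clusters 2, 5, 8 and 9. These lists therefore do not place it as nodose or jugular. Of 44 genes that lead other vagal neuron groups 34 were lower and 2, Cckar and Glp1r, were higher. That list was assembled from neuron types outside this set, so its direction is not independent of the choice of nuclei.

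Relatives of the rule genes were mostly not called. Of the Kirrel family Kirrel1 was at 0 to 23.98 CPM in rule nuclei of cluster 1 and 17.2 to 34.3 CPM in neurons outside it, and at a median of 111 CPM in rule nuclei elsewhere and 242 CPM in non-neuronal nuclei. Among 9 other fibrillar collagens Col11a2 was higher and Col24a1 and Col5a1 were lower. Of the FTS-Hook-FHIP complex none of 6 other members was called, and Fhip1b was at 9.44 to 48.3 CPM against 20.9 to 25.7 CPM. The MYT1 family members Myt1 and Myt1l had log2 fold changes of -0.51 and 0.21 and were not called.

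Clusters 5 and 9 are set beside cluster 1, the former because it is led by Lpar3 and the latter because it had the next highest share of rule nuclei among neuron-like clusters. Cluster 5, led by Hunk, Lpar3, Col6a5 and Pde1a, had a Kirrel3 level of 1904 CPM over all its nuclei, and 42 of its 1927 nuclei (2.18%) met the rule. Fhip1a was among its leading genes too, at 142 CPM with a UMI in 31.6% of its nuclei, compared with 280 CPM and 46.4% in cluster 1, while Col27a1 was at 13.7 CPM. It differed in Trpa1 (median 738 CPM), Asic2 (561 CPM) and Ngfr (1446 CPM). Cluster 9 had Kirrel3 at 4471 CPM and Col27a1 at 170 CPM over all its nuclei, but Fhip1a at 10.7 CPM, below the 280 CPM of cluster 1. It shared with cluster 1 high Asic2 (median 4441 CPM), Kcnk9 (118 CPM) and Tmc3 (811 CPM), and stood apart in Piezo2 (964 CPM), Kcnq3 (210 CPM) and Adcyap1 (22.1 CPM). These values stand side by side without a test, since the clusters were formed from the same counts.

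Cluster 1 was not uniform. A second clustering of its 3822 nuclei gave 5 groups, named here by their leading genes, and in each the 4 rule genes were present. The largest, led by Col22a1, Sulf1, Siah3 and Prkcq, held 1175 nuclei, and 32.1% of them met the rule. Its Kirrel3 level of 8321 CPM was above the 5734 CPM of the remaining nuclei of the cluster. The next, led by Cntnap5a and Shank1, held 926 nuclei (31.1% met the rule) and had Cntnap5a at 487.5 CPM against 134.9 CPM. The group led by Cdh12 and Col6a5 held 674 nuclei and had the smallest share meeting the rule, 16.02%, with Col27a1 at 106 CPM against 230 CPM. A group of 611 nuclei was led by Pde7b, Pcdh7, Etl4 and Slc4a4 and also by the glial membrane gene Gpm6b (150 CPM against 37.5 CPM), and 30.9% of it met the rule. The smallest, 436 nuclei led by Chrna3, Sema3e and Kcnd2, had Cckar at 190 CPM against 60.0 CPM and St18 at 504 CPM against 335 CPM, and 19.3% of it met the rule. All 5 groups occurred in all 12 pools, and the smallest group took 7.12% to 14.8% of a pool's cluster 1 nuclei.

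Comparing left with right asked whether the vagal ganglia of the 2 sides hold different numbers of these nuclei. Rule nuclei of neuron-like clusters made up 5.43% ± 1.52 of neuron-like nuclei on the left and 5.73% ± 2.01 on the right (mean ± SD over 6 pools a side, two-sided exact permutation test, p = 0.775 and adjusted p = 0.97). Left pools ran from 2.68% to 6.82% and right pools from 2.95% to 7.84%, so the sides overlapped almost fully. Over the 6 pools of each labelled sex the shares were 6.60% ± 0.41 in female-labelled and 4.56% ± 1.94 in male-labelled pools (SD over 6 pools, with p = 0.06 and adjusted p = 0.12 by the same exact test). Female-labelled pools lay between 6.26% and 7.32%, and male-labelled pools between 2.68% and 7.84%, the highest being 1MR and the lowest 2ML. Without 1ML and 4FL the difference of 2.06 percentage points had an exact permutation p of 0.133. Without 1MR alone the difference was 2.69 percentage points and passed (exact permutation p = 0.005, adjusted p = 0.01). P-values were adjusted over the share and depth comparisons, 4 in all, and the smallest p that the 400 relabellings allow is 0.005.

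The depth of the rule nuclei moved with labelled sex. Their median was 4167 ± 357 UMIs in female-labelled and 3222 ± 458 UMIs in male-labelled pools (SD over 6 pools, with an exact permutation p at the smallest value it can take, 0.005, and adjusted p = 0.02), and the pools did not overlap (3835 to 4841 and 2694 to 3782). Without 1ML and 4FL the difference was 1059 UMIs and missed the threshold (exact permutation p = 0.0167, the smallest that this number of pools allows, adjusted p = 0.0667). Leaving out 4FL, 5FL or 6FL alone gave differences of 946, 945 and 960 UMIs with adjusted p = 0.06 each (exact permutation). By side the medians were 3701 ± 578 UMIs on the left and 3688 ± 734 UMIs on the right (SD over 6 pools, p = 0.97 by exact permutation). With nuclei thinned to 1500 UMIs, the shares were 2.75% ± 0.39 in female-labelled and 2.17% ± 0.54 in male-labelled pools (SD over 6 pools, p = 0.07 and adjusted p = 0.14 by exact permutation). All of cluster 1, rule or not, was 15.7% ± 1.54 of neuron-like nuclei in female-labelled and 13.9% ± 2.28 in male-labelled pools (SD over 6 pools, p = 0.135 by exact permutation). In these pools the share meeting the rule within cluster 1 ran from 17.2% (2ML) to 35.0% (1MR). How much of the difference in shares follows from depth was not tested beyond the thinned values.

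**Figure D5:**
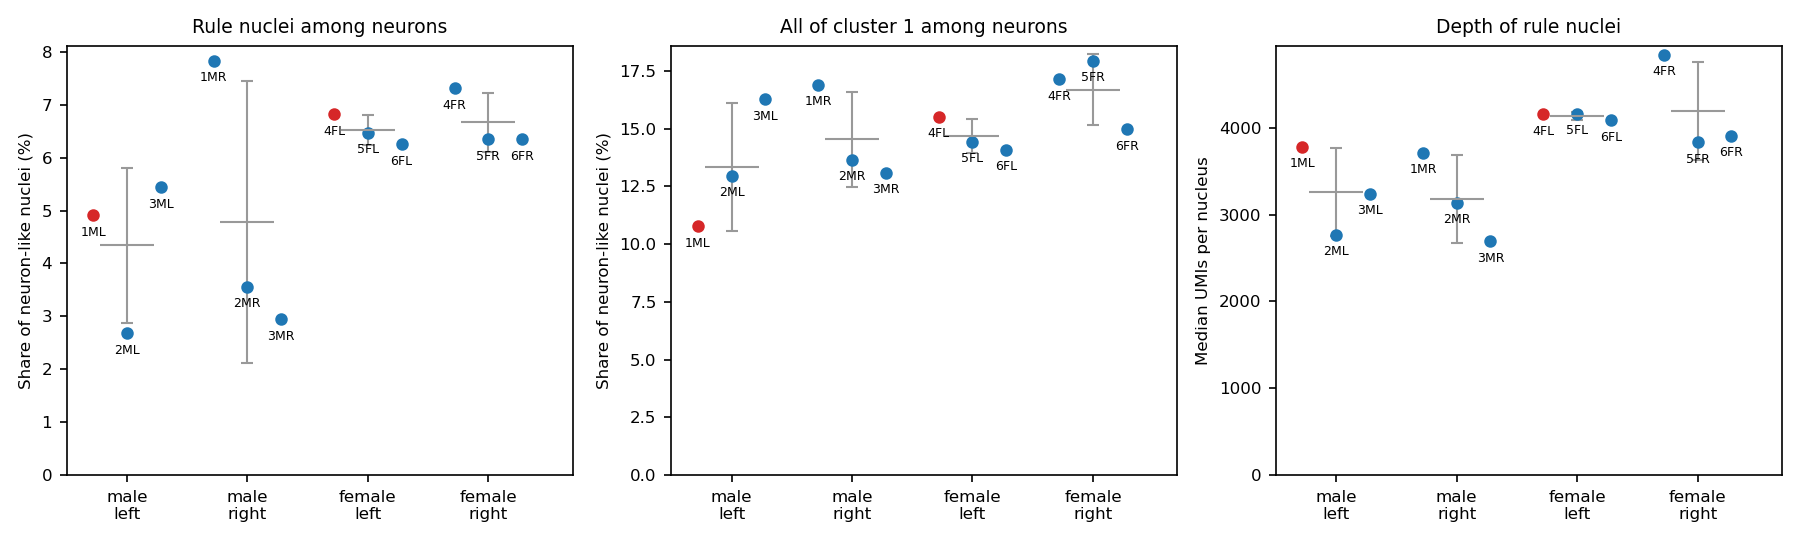
Rule nuclei of neuron-like clusters and all nuclei of cluster 1 as a percent of neuron-like nuclei, and the median UMIs of rule nuclei (y axes), for each pool by labelled sex and side (x axis), with group mean and SD as grey bars (n = 3 each). Red points are 1ML and 4FL, whose Y-linked transcripts go against their label, and the shallow pools 2ML, 2MR and 3MR have the lowest shares in the left panel.

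No gene passed the threshold between sides within the rule nuclei. edgeR called 0 of 9848 genes (0%), while 449 had p under 0.05 before adjustment. DESeq2 also called 0, with 232 before adjustment. The 3 genes with the smallest p did not pass. Col6a5, a collagen VI chain, was at 484 to 831 CPM (median 645) in left pools and 344 to 620 CPM (median 418) in right pools, a log2 fold change of -0.49 ± 0.10 (SE) from left to right with an edgeR adjusted p of 0.422. The sides overlapped for it. Snx25, a sorting nexin, was at 101 to 142 CPM in left and 160 to 189 CPM in right pools, and Trpm3 at 1481 to 1771 CPM in left and 1236 to 1416 CPM in right pools. Neither of these overlapped between the sides, and both had an edgeR adjusted p of 0.422. The genes were chosen by smallest p, so sides without overlap carry no further support. With no filter on low counts the log2 fold changes stayed near those of the main fit, at -0.47 (Col6a5), 0.39 (Snx25) and -0.25 (Trpm3). All 3 then passed, with edgeR adjusted p of 7.47e-08 (Col6a5), 0.0361 (Snx25) and 0.0341 (Trpm3), among 35 genes called. What moved the adjusted p was not tested. Without pool 6FR the count was 6, 5 higher and 1 lower on the right.

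In all 3822 nuclei of cluster 1, a comparison added after seeing the data, 11 of 8833 genes (0.125%) were called by side. Hs6st3, a heparan sulfate sulfotransferase, was at 74.2 to 104 CPM in left and 112 to 164 CPM in right pools (log2 fold change 0.67 ± 0.10, edgeR adjusted p = 0.000582). Hs6st3 and Crtac1 also led the sub-group of cluster 1 with Chrna3 and Cckar. Crtac1, a secreted matrix protein, was at 129 to 185 CPM and 204 to 234 CPM, and the calcium sensor Ncald at 561 to 713 CPM and 720 to 861 CPM. Nrg1 and Abcb1b were the other genes higher on the right. Among those lower on the right were Fgf14, a regulator of sodium channels (1483 to 2049 CPM and 1175 to 1528 CPM), AABR07007068.1, Shisa9, Zfp804b and the nicotinic subunit Chrna7 (108 to 183 CPM and 73.4 to 103 CPM). Of the 11 genes, Hs6st3, Crtac1, Fgf14 and Zfp804b were among those called in this cluster without 1ML and 4FL as well. All of these genes were named after their values were seen.

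By labelled sex edgeR called 0 of 9848 genes in the rule nuclei (0%), while 618 had p under 0.05 before adjustment. DESeq2 also called 0, with 346 before adjustment. The genes with the smallest p were all higher in female-labelled pools. Ache, acetylcholinesterase, was at 99.4 to 128 CPM (median 117) in female-labelled and 50.3 to 89.8 CPM (median 78.3) in male-labelled pools. The groups did not overlap, and the log2 fold change was 0.60 ± 0.12 (SE) with an edgeR adjusted p of 0.159. Itm2a was at 101 to 127 CPM and 50.9 to 91.1 CPM, also without overlap (edgeR adjusted p = 0.161). Nnat was at 56.7 to 124 CPM and 35.8 to 65.9 CPM, with overlap (edgeR adjusted p = 0.159). These genes too were chosen by smallest p, so groups without overlap carry no further support. With no filter on low counts all 3 passed (edgeR adjusted p of 7.08e-05, 0.000481 and 5.07e-07), among 66 genes called. The log2 fold changes of Ache (0.62) and Nnat (0.83) were near those of the main fit. The count was 10 without 1ML, 10 without 1MR, 7 without 4FL and 37 without 5FR, so the count of 0 depends on single pools. It was 0 without any of the other 8 pools. Without both 1ML and 4FL it was 13, with a smallest edgeR adjusted p of 1.46e-17. In all nuclei of cluster 1, the Y-linked genes Kdm5d and Eif2s3y were among the calls without these pools. The part of sex-linked genes in the counts of rule nuclei was not tested.

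In all nuclei of cluster 1, again added after seeing the data, 63 of 8833 genes (0.713%) were called by labelled sex, 45 higher and 18 lower in female-labelled pools. Rule nuclei of cluster 1 alone gave 24. Ache was at 95.9 to 131 CPM in female-labelled and 49.2 to 74.7 CPM in male-labelled pools (log2 fold change 0.73 ± 0.12, edgeR adjusted p = 0.000533). C1ql3, a secreted synaptic organiser that was also higher in cluster 1 than in other neurons, was at 169 to 239 CPM and 84.1 to 152 CPM. It was also among the leading genes of the unnamed cluster 6. Gnas, Actb, Hsp90aa1, Hsp90ab1, Tubb2a, Ctsb, Reep5 and Ngfr were higher as well, most of them abundant genes of many cell types. Unc13c, of synaptic vesicle priming, was at 154 to 324 CPM and 299 to 397 CPM, and Kcnip4, Setbp1, Ppargc1a and Agtr1a were lower in female-labelled pools too. The Y-linked gene Kdm5d was among the lower calls at 0 to 53.7 CPM and 1.45 to 64.7 CPM. The overlap was that of the 2 pools that go against their label. Without 1ML and 4FL its log2 fold change was -4.73 and that of Eif2s3y, also Y-linked, -7.54, both among 85 genes called. Depth and mitochondrial transcripts moved with labelled sex in these nuclei. The median depth of cluster 1 nuclei was 2663 ± 233 UMIs in female-labelled and 2009 ± 321 UMIs in male-labelled pools (SD, 6 pools each, 2358 to 3065 and 1670 to 2482). Genes of the mitochondrial genome took 2.06% ± 0.81 and 1.11% ± 0.58 of their UMIs (SD, 6 pools each). Of 13 such genes tested 7 were called higher in female-labelled pools and none lower, and without 1ML and 4FL 8 were higher, led by AY172581.24 (log2 fold change 1.04, edgeR adjusted p = 0.000213) and Mt-co3 (0.88, edgeR adjusted p = 0.00174). The part of both in the calls was not tested. The genes of this paragraph except Ache were named after their values were seen.

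The interaction asked whether the side difference itself differs between labelled sexes. edgeR called 0 of 9848 genes (0%), while 470 had p under 0.05 before adjustment. DESeq2 also called 0, with 143 before adjustment. Chn2, a Rac-regulating chimaerin, had the smallest p. It was at 61.6, 40.2 and 38.7 CPM in the male-labelled left pools 1ML, 2ML and 3ML and 22.3, 34.1 and 38.9 CPM in the right pools 1MR, 2MR and 3MR. In the female-labelled pools it was at 17.7, 40.95 and 25.1 CPM on the left (4FL, 5FL and 6FL) and 54.2, 84.8 and 48.7 CPM on the right (4FR, 5FR and 6FR). The log2 interaction was 2.03 ± 0.40 (SE) with an edgeR adjusted p of 0.212. Both pools that go against their label are extremes here, 1ML the highest of the male-labelled left pools and 4FL the lowest of the female-labelled left pools. Without both, an alternative added after seeing the data, the log2 interaction of Chn2 was 1.37 with an edgeR adjusted p of 0.981, and 0 of 9986 genes were called. It passed without 3ML (2.18, edgeR adjusted p = 0.0244), without 5FL (2.33, edgeR adjusted p = 0.0407) and with no filter on low counts (2.04, edgeR adjusted p = 1.23e-06). Chn2 was at 15.5 CPM in rule nuclei of cluster 1 and 122 CPM in non-neuronal nuclei, and the part of the latter in these values was not tested.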

How the data were processed

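The deposited matrix holds raw counts (UMIs) per nucleus and gene, made by the authors from Evercode version 2 nuclei libraries. Per the submitters' processing notes build mRatBN7.2, R 4.3.2 and Seurat 4.1.3 were used. The aligner, annotation release and filter on nuclei were not given in the sources used here. All 36741 nuclei were kept. Pools, not sublibraries, were the replicates. Pool depths ranged from 7140286 to 19456287 UMIs. The members and gene lists were chosen with earlier results of these data known.

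Nuclei were clustered with scanpy 1.11.5 (3000 variable genes, 30 components, 20 neighbours, Leiden resolution 1) and named from marker lists. A Scrublet run called 13 nuclei (0.0354%), too few to work as a caller, so no doublets were removed and scores served as an alternative. Counts were summed per pool. edgeR 4.0.16 fitted quasi-likelihood models (TMM factors, filterByExpr, Benjamini-Hochberg adjustment), tested on simulated data, with DESeq2 1.42.0 as an alternative. Side and labelled sex were additive terms. Levels in CPM are plain UMIs per 1000000 UMIs, and fold changes are edgeR's. Shares and depths were compared by exact permutation within the other factor. Left and right pools of a number were not paired.

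Named genes against other neurons were the 15 highest and 10 lowest fold changes among called genes with a symbol and at least 50 CPM in the higher group, rule genes left out. By side and labelled sex they were the 3 with the smallest p, and for the interaction the 1. From each gene list at most 4 called genes with the largest changes were named, with any gene a comparison turned on. Other genes, such as uncalled list members given for their known role, were chosen after their values were seen. Results for some genes are not reported here.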

Additional observations from a re-analysis of the deposited data

Results flagged for a closer look

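Of 56 groups of 6 pools checked over 14 measures, 2 had a pool far from the others, and chance gives about 1 in 20. Rule nuclei of pool 4FR had a median of 4841 UMIs, while its 5 fellow female-labelled pools ran from 3835 to 4165. Snx25 in rule nuclei was at 188.8 CPM in pool 5FR, whereas the other right pools had 159.7 to 166.7 CPM.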

How the results depend on the processing

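The share of rule nuclei by side (left minus right, -0.30 percentage points) passed under no alternative. It was 0.15 with all nuclei as denominator and -0.85 to 0.25 with each pool left out, above 0 without 1MR (0.12), 2ML (0.25) or 4FR (0.02). By labelled sex (female minus male, 2.03) it passed with all nuclei as denominator (1.90, exact permutation, adjusted p = 0.03) and under the stricter rule (1.07, adjusted p = 0.01, exact permutation). With each pool left out it was 1.66 to 2.69 and passed without 1MR (2.69, adjusted p = 0.01, exact permutation). Depth by side (13.1 UMIs) was -121.9 without 1ML and 4FL and -185.7 to 243.8 with each pool left out. It was below 0 without 1ML (-3.27), 2MR (-97.7), 3MR (-185.7), 4FL (-78.6), 5FL (-79.8) or 6FL (-64.8). Depth by labelled sex was 810 to 1057 UMIs with each pool left out (past the threshold no longer without 4FL, 5FL or 6FL) and 1059 without 1ML and 4FL, also no longer past it.

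Counts of called genes by side were 35 with no filter on low counts, 11 in all of cluster 1, 6 there without 1ML and 4FL, and 0 to 6 with each pool left out. By labelled sex they were 66 with no filter, 21 under the stricter rule, 13 without 1ML and 4FL, and 0 to 37 with each pool left out. They were 24 in rule nuclei of cluster 1 and 63 in all of cluster 1. Without 1ML and 4FL the latter count was 85, which includes the Y-linked genes Kdm5d and Eif2s3y. The interaction gave 24 with no filter and 0 to 4 with each pool left out (4 without 3ML, 1 without 5FL). Without 1ML and 4FL, added after seeing the data, it gave 0. Against other neurons the higher genes were 722 with no filter, 181 after thinning, 142 with rule nuclei of neuron-like clusters alone and 468 to 494 with each pool left out. The lower genes were 447 with no filter and 252 to 276 with each pool left out. In rule nuclei of neuron-like clusters alone Lpar1 (-0.32) and Sorcs2 (-0.19) turned lower. The causes were not tested.

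The left and right pools of a number did not deviate together (correlations of -0.0867 to -0.00120 over 5714 genes), and with the number as a replicate block 0 genes were called by side. No paired analysis was possible by labelled sex because no number occurs in both sexes. The planned comparison with Lpar3 Pde1a Hunk nuclei was not run, since its 80 nuclei left every pool under the minimum of 20. Depth limits the rare genes: 3 UMIs over the rule nuclei of cluster 1 are 0.876 CPM.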
